A study of Mus musculus with 4 samples.

Results

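Foxp1 enrichment at each gene was compared between the basal and luminal epithelium of the mouse mammary gland, from chromatin immunoprecipitation followed by sequencing (ChIP-seq). The measure was a ratio of ratios: reads in the basal Foxp1 ChIP over basal input, divided by reads in the luminal Foxp1 ChIP over luminal input, after scaling the 4 libraries. It could be formed for the 23128 of 24548 genes with at least 40 reads over the 4 libraries, and the other 1420 were left out. Wild-type females of strain FVB/N gave the cells (spelled FBV/N in the sample labels), and the mice were 10 to 12 weeks old. No allele, transgene or treatment is named for either cell type. Each group was 1 library: a basal Foxp1 ChIP, a basal input, a luminal Foxp1 ChIP and a luminal input, the inputs having been sequenced without an antibody. The labels do not say how the cells were separated or whether animals were pooled. No control antibody library was analysed here, so the ratios do not separate DNA bound by Foxp1 from DNA recovered for other reasons. In bulk chromatin, a larger share of cells carrying the recovered DNA and more of it per cell cannot be told apart.

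Foxp1 belongs to the forkhead family of transcription factors, which bind DNA through a winged-helix domain at short sites related to TGTTTAC, and it acts mostly as a repressor. Forkhead factors of the FOXO group, which are switched off by insulin and growth factor signalling, bind the same core. Basal mammary cells make up the contractile sheath around the ducts and include cells that can regenerate a gland on transplantation. Luminal cells line the duct and include hormone-sensing cells and the progenitors of milk-secreting cells. Tspan8, a tetraspanin of the cell surface, marks a quiescent subset of basal stem cells in this tissue.

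Values for a gene are read counts of a DNA region assigned to it, not expression levels and not called binding sites. A positive log2 difference means that ChIP over input was higher in basal cells, and a negative one that it was higher in luminal cells. A gene was called when the difference was at least 1.5-fold and its 99% interval, computed from the 4 counts, excluded no difference. With 1 library per group there was no spread between replicates to test against, so no p-value is given and the intervals cover counting error only.

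Basal enrichment was called higher at 861 genes, 3.72% of those tested, and luminal enrichment was called higher at 963 genes, or 4.16%. The median difference over all tested genes was 0.0034 on the log2 scale. Among the 861, the median ratio of ChIP to input was 0.51 in basal cells and -0.27 in luminal cells. Among the 963 the medians were -0.57 in basal and 0.28 in luminal cells. By these medians, the basal library lay farther from its input than the luminal one in both directions. Taken against its own input alone, basal ChIP was called higher at 317 of the 861 genes and luminal ChIP was called lower at 148. At 398 neither cell type alone passed the rule. Of the 963, basal ChIP was called lower at 402, luminal ChIP was called higher at 76, and neither passed at 493. The 2 ChIP libraries compared directly, without input, differed in the same direction at 861 of 861 and 958 of 963 genes. They were called in that direction at 388 and 430. The ChIP ratio is itself a term of the difference used for the calls, so this agreement was largely fixed in advance. Few genes lay far out: 133 of the 861 and 239 of the 963 differed at least 2-fold, and 27 and 45 at least 4-fold.

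**Figure D1:**
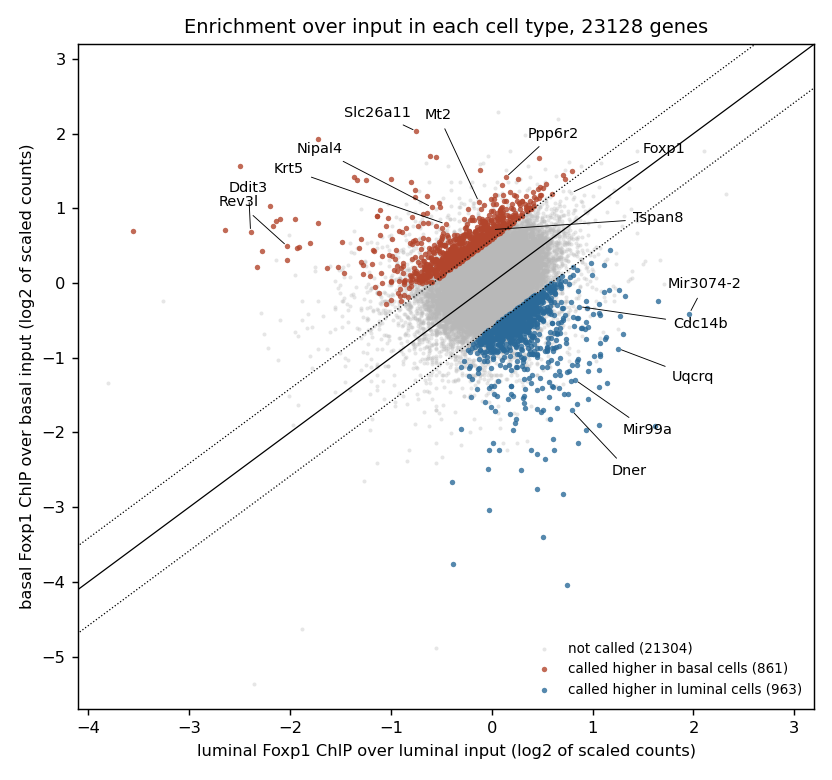
Log2 ratio of Foxp1 ChIP to input in luminal cells (x axis) and basal cells (y axis) for each of the 23128 tested genes. The solid line marks equal enrichment and the dotted lines 1.5-fold differences. The 861 genes called higher in basal cells lie above the upper dotted line and the 963 called higher in luminal cells below the lower one, while Foxp1 itself is enriched in both and not called.

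Spread beyond counting was present throughout. The variance of the differences was 2.24 times what counting alone gives over all tested genes and 2.25 times in the 1108 olfactory receptor genes, which mammary cells are not known to use. Intervals widened by that receptor spread left 185 calls higher in basal cells and 123 in luminal cells. Scaling moved the split between directions. Calls higher in basal cells made up 47.2% of all calls as reported and 82.9% when the receptors were taken as the zero point, a choice that put the median of all genes at 0.15. Directions below are given relative to the median of all genes.

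Promoters of called genes were searched for TGTTTAC on both strands, in the window from 250 bases before to 50 bases after each RefSeq start site. It was present in 3.65% of all 32851 windows of this length in the table. Among tested genes with a window, 615 of 17432 (3.53%) held it, against 30 of 617 (4.86%) called higher in basal cells and 32 of 713 (4.49%) called higher in luminal cells. Related forkhead letters did not all order the same way. TGTTTAT was held by 4.58% of tested genes with a window, 3.24% of those called higher in basal and 6.87% of those called higher in luminal cells. For TATTTAC the shares were 2.98%, 1.62% and 3.65%, and for TATTTAT 5.50%, 5.67% and 8.42%. Any of these 4 motifs was held by 14.7%, 13.5% and 19.2%, and the median promoter GC content of the same sets was 56.5%, 58.7% and 51.7%. The 615 genes with the motif had a median difference of 0.013 and the 16817 without it of 0.0040, and with the motif 4.88% were called higher in basal and 5.20% in luminal cells, against 3.49% and 4.05% without. Of 176 named genes that were called, 121 had a window and 7 of these held the motif. Windows of 4 of them, which cover a stem cell marker, a contractile gene, an antiproliferative gene and the luminal prolactin receptor, are given with that of Krt5, which had the largest difference among the keratin genes and has no match. Sequences are from RefSeq on GRCm38.p6, read 5′ to 3′ on the gene's strand, with the motif in capitals (GTAAACA where it lies on the other strand).
Tspan8, plus strand, chr10:115817034-115817333: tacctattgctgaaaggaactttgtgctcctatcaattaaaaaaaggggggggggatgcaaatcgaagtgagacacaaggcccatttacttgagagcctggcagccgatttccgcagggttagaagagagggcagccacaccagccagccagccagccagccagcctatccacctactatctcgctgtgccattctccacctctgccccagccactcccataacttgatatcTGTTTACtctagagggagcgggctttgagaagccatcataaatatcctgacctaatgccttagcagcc
Cald1, plus strand, chr6:34598254-34598553: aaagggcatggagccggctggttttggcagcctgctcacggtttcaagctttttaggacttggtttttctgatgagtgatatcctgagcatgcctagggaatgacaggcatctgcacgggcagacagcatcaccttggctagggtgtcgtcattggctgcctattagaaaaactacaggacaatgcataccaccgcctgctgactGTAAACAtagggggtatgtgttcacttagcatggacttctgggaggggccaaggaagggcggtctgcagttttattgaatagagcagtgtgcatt
Btg1, plus strand, chr10:96616751-96617050: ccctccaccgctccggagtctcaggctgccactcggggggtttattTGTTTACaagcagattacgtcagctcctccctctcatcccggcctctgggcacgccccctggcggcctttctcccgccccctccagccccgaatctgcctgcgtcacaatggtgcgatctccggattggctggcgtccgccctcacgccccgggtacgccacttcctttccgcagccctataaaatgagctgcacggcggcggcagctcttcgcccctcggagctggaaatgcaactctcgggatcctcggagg
Prlr, plus strand, chr15:10223656-10223955: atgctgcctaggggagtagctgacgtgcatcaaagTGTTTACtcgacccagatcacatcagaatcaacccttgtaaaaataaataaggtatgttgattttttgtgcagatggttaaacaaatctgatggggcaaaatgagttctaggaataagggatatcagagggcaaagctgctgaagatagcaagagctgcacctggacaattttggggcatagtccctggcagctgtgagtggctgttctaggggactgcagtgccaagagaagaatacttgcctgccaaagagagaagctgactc
Krt5, minus strand, chr15:101712856-101713155: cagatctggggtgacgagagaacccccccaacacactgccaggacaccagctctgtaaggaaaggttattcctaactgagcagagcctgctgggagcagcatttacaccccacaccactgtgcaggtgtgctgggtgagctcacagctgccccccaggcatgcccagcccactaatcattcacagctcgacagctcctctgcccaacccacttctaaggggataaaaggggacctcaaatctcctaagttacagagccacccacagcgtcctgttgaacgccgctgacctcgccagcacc
The motif began 18 bases before the start site of Tspan8, 45 bases before one of the 2 listed for Cald1, 204 before that of Btg1 and 215 before one of the 3 listed start sites of Prlr. A match is a description of these letters and not a measured site, since the counts do not place reads within a gene's region.

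Among 47 gene groups examined, those of basal keratin and adhesion genes and of contractile genes held the highest shares of calls higher in basal cells as reported. Of 23 keratin and adhesion genes tested, 8 (34.8%, beside 3.72% of all genes) were called higher in basal cells and 0 in luminal cells. The group median difference was 0.37, with 17 of the 23 above 0. The order of groups depended on the settings. Contractile genes led with the receptors as the zero point (52.2% against 43.5%) and with the inputs summed (47.8% against 30.4%). With the inputs summed, the common background cancels and the ChIP libraries are compared directly. Stem cell and quiescence genes led with the widened interval (10.3% against 8.7% for keratin and adhesion genes). Krt5, the type II keratin of basal epithelium (Entrez gene 110308, chromosome 15, 101707069 to 101712905, GRCm38.p6), had 383 reads in ChIP over 188 in input in basal cells and 99 over 185 in luminal cells. Basal ChIP was the highest of the 4 libraries and luminal ChIP the lowest, so that the difference of 1.24 (standard error 0.22, 2.37-fold, interval 1.60 to 3.51) came from both sides. Krt14, its type I partner, had 390 reads over 182 in basal cells and 128 over 165 in luminal cells, a difference of 0.78. Its input also differed, being called higher in basal cells at a log2 ratio of 0.59, and the call was lost with the widened interval.

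Krt14 lies in a cluster on chromosome 11 with Krt16 and Krt17, keratins induced in stressed epithelium, and these adjacent genes were called too, at 0.75 and 0.74. Krt15, a keratin of basal stem-like cells in skin, is of the same cluster and stood at -0.13 without being called. Itgb4 and Itga6 encode the integrin that anchors basal cells at hemidesmosomes. Itgb4 had 350 reads over 192 in basal and 172 over 255 in luminal cells, a difference of 0.75 (standard error 0.19), and Itga6 differed by 0.61. Perp, a desmosome-associated membrane protein (0.70), and Pkp1, the plakophilin of desmosomes (0.60), completed the 8. The lowest of the group, Dst, a linker of hemidesmosomes to keratin, stood at -1.20 with only 16 to 27 reads in each library and was not called. Directly between the ChIP libraries, 7 of the 23 were called higher in basal cells, and the median of the group between the inputs was 0.094.

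Contractile genes of myoepithelial cells had the highest median difference of these groups, 0.49. Of 23 tested, 7 (30.4%, beside 3.72% of all genes) were called higher in basal cells and 0 in luminal cells. Cnn1, the smooth muscle calponin, had 255 reads over 149 in basal cells and 128 over 200 in luminal cells, a difference of 0.73. Myl9, a myosin light chain, differed by 0.70, and the tropomyosin genes Tpm2 and Tpm1 by 0.69 and 0.65. Cald1, caldesmon, had 489 reads over 243 in basal and 237 over 294 in luminal cells, a difference of 0.64 (standard error 0.17). Flna, filamin A, an actin crosslinker, differed by 0.72, and Oxtr, the oxytocin receptor through which milk ejection is triggered, by 0.63. Directly between the ChIP libraries 11 of the 23 were called higher in basal cells, including 6 of these 7 (all but Flna), and the input ratios of the 7 lay between -0.16 and 0.21. Acta2, smooth muscle actin, was called between the ChIP libraries (0.70) but not after division by input (0.40). Mkl1, a cofactor of the serum response factor Srf, was the highest member at 0.89 without being called, and Srf the lowest at -0.66. None of the 7 calls was kept with the widened interval.

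**Figure D2:**
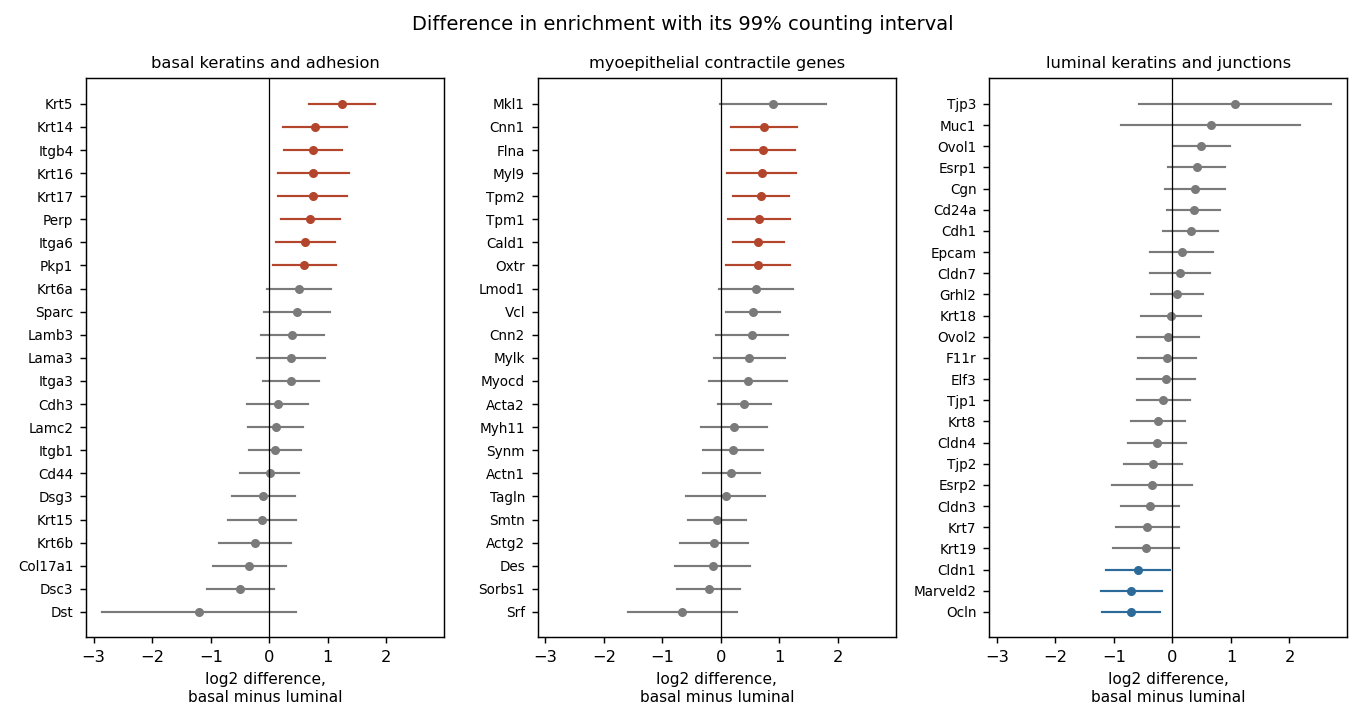
Log2 difference in enrichment, basal minus luminal, for each tested member of the basal keratin and adhesion group, the contractile group and the luminal keratin and junction group. Points are differences and bars their 99% counting intervals, coloured where the gene was called. Calls lie on the basal side in the first and second groups (8 and 7) and on the luminal side in the third (3).

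Of 23 transcription factors of basal cells, Irx4 (0.93), an Iroquois homeobox factor, and Tbx3 (0.77), a T-box factor needed for mammary gland formation, were called higher in basal cells and 0 in luminal cells, with a group median of 0.25. The share called was 8.70%, beside 3.72% of all genes. Centred within promoter GC bins, which only 11 of the 23 allowed, the median of those 11 was -0.07. The set of genes changed along with the centring, so the effect of centring cannot be read from these medians. Tbx3 also belongs to the hormone-sensing luminal list. Trp63, the regulator of basal identity, had 212 reads over 180 in basal and 135 over 204 in luminal cells, a difference of 0.15 that was not called. Irx2, named after its value was seen, was called as well at 1.47. Grhl3, a regulator of epidermal barrier genes outside the lists, was chosen the same way and differed by 0.93.

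After division by input, luminal keratin and junction genes held the highest share of luminal calls among the gene groups examined, as reported. That share was below the basal shares of basal keratin and adhesion genes (34.8%) and contractile genes (30.4%). Luminal calls made up 4.17% of hormone-sensing genes and 0% of luminal progenitor and milk protein genes. Among 25 luminal keratin and junction genes, 3 (12%, beside 4.16% of all genes) were called higher in luminal cells and 0 in basal cells, with a median of -0.09. All 3 encode tight junction proteins. The highest member, Tjp3, is also a tight junction gene and stood at 1.07 without being called. Of the 25 genes, 10 lay above 0. Ocln, occludin, had 175 reads over 161 in basal and 332 over 300 in luminal cells, a difference of -0.71, and its neighbour on chromosome 13, Marveld2 (tricellulin), had 165 over 165 and 272 over 268, a difference of -0.70. Cldn1, claudin 1, stood at -0.59. These calls were lost when the receptors were taken as the zero point and with the widened interval, and that on Cldn1 also with DESeq2 size factors. In the luminal keratins Krt8 and Krt18 the inputs moved with the ChIP libraries. Krt8 had 277 reads over 176 in basal and 368 over 317 in luminal cells; luminal ChIP was called higher directly (-0.64), the input ratio was -0.40, and the difference after division was -0.24. Krt18 stood at -0.39 between ChIP libraries, -0.37 between inputs and -0.02 after division. Over the 25 genes the median was -0.43 between ChIP libraries, with 8 called higher in luminal and none in basal cells, and -0.37 between inputs. The luminal progenitor group had a median of -0.12 between ChIP libraries, -0.18 between inputs and 0.13 after division, so that its sign turned with the use of input.

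Of 26 luminal progenitor genes, Hey1 (0.62), a Notch effector, and Mfge8 (0.71), a milk fat globule protein, were called higher in basal cells. They made up 7.69% of the group, beside 3.72% of all genes. Kit, a receptor kinase of luminal progenitors, had 155 reads over 115 and 189 over 246, with its input called higher in luminal cells at -0.65 and a difference of 0.13. Elf5, a regulator of alveolar fate, stood at 0.21. In the hormone-sensing group of 24, Prlr, the prolactin receptor, was called higher in luminal cells and Tbx3 (0.77) in basal cells. Each made up 4.17%, beside 4.16% and 3.72% of all genes. The lowest member, Cited1, stood at -1.99 without being called. Prlr had 122 reads over 143 in basal and 210 over 257 in luminal cells, a difference of -0.62. Its call was lost with the receptors as the zero point, with centring on genes of like promoter composition and with the widened interval. Gata3, a regulator of luminal fate, had 100 over 62 and 114 over 77, and its difference of -0.56 had an interval from -1.37 to 0.25. Esr1 and Pgr, the estrogen and progesterone receptors, stood at 0.06 and 0.01, and Foxa1, a forkhead factor that opens estrogen receptor sites, at 0.13. Milk protein genes, 15 tested, had a median of -0.12 with only Mfge8 called (6.67%).

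Stem cell and quiescence genes were called in both directions. Of 29, 6 (20.7%) were called higher in basal and 2 (6.90%) in luminal cells, beside 3.72% and 4.16% of all genes, with a median of 0.13. Tspan8 had 319 reads over 165 in basal and 202 over 275 in luminal cells, a difference of 0.71 (standard error 0.19, 1.64-fold, interval 1.16 to 2.31). Between the ChIP libraries it stood at 0.42, under the 1.5-fold threshold, and was not called, and between the inputs it stood at -0.29. Ptprr, a receptor phosphatase and the next tested gene along chromosome 10, was called at 0.72, a gene chosen after its value was seen. Cdkn1b, the inhibitor p27, had 358 over 163 and 220 over 295, a difference of 0.87, of which 0.47 lay between the ChIP libraries. Nfatc1, a quiescence factor of hair follicle stem cells, had 406 over 190 and 191 over 242, and its call (0.75) was kept with the inputs summed and with the widened interval. Btg1 (0.82), an antiproliferative protein, Rb1 (0.67), the retinoblastoma protein, and Lgr6 (0.63), a stem cell marker and R-spondin receptor, were the others. Rbl2 (-0.63), a retinoblastoma relative that holds cells in quiescence, and Sox2 (-0.65), a pluripotency factor, were called higher in luminal cells.

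Among 25 tetraspanins, Cd151 (0.92) and Cd9 (0.60) were called higher in basal cells along with Tspan8, and none was called the other way. That basal share was 12%, beside 3.72% of all genes. Of 31 genes of the G1 phase, calls on the basal side were Cdkn1b, Rb1, Myc and its partner Max (0.71). On the luminal side they were Rbl2 and Ccne2, cyclin E2 (-0.65). Shares were 12.9% and 6.45%, beside 3.72% and 4.16% of all genes. Myc, a growth-promoting transcription factor, had 387 reads over 164 in basal and 308 over 322 in luminal cells. Its difference of 0.62 was made of 0.09 between the ChIP libraries and -0.53 between the inputs. Of 30 replication and mitosis genes, Mcm5 (0.61) and Top2a (0.69) were called higher in basal cells, 6.67% beside 3.72% of all genes. Both calls were lost with the inputs summed and with the widened interval.

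Wnt pathway genes were taken as ligands, receptors and the other components. Calls higher in basal cells made up 26.3%, 16.7% and 6.90% of these, and calls higher in luminal cells 0%, 0% and 6.90%. Over all genes the shares were 3.72% and 4.16%. Of 19 ligand genes 5 were called higher in basal cells and 0 in luminal cells, with a median of 0.13. Wnt10a had 221 reads over 147 in basal and 71 over 157 in luminal cells, a difference of 1.04 (standard error 0.26); basal ChIP was highest and luminal ChIP lowest. Wnt3 (0.79), Wnt11 (0.70), Wnt8a (0.62) and Wnt5a (0.61) were the others, and Wnt10a alone was kept with the widened interval. Of 18 receptor genes, the Frizzled genes Fzd2 (1.05, 317 over 176 against 154 over 284) and Fzd7 (0.67) were called higher in basal cells with Lgr6. Modulators, effectors and targets, 29 in all, were called evenly: the nuclear effectors Tcf7l2 (0.66) and Tcf7 (0.63) higher in basal cells, and the inhibitor Dkk2 (-0.83) and the kinase Gsk3b (-1.35) in luminal cells, with a median of -0.02. Of 27 Notch pathway genes, Hey1 and Numbl (0.79), a relative of the Notch inhibitor Numb, were called higher in basal cells (7.41%) and 0 in luminal cells. Hes1, a Notch effector called over input in both cell types, had 464 over 200 and 399 over 307 and differed by 0.15.

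Growth factor genes of the EGF family followed no single direction. Nrg1 (0.69), Hbegf (0.68) and Ereg (0.63) were called higher in basal cells and Nrg4 (-0.66) in luminal cells, of 15 tested. Shares were 20% and 6.67%, beside 3.72% and 4.16% of all genes. In the TGF-beta and BMP group 1 of 32 (3.1%), the receptor Tgfbr2 (0.60), was called higher in basal cells. In the JAK and STAT group of 25, the feedback inhibitors Socs6 (0.66) and Cish (0.61) were called higher in basal cells (8%) and Prlr in luminal cells (4%).

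Insulin, IGF and FOXO genes had a median of 0.20 over 40 tested, with 4 (10%) called higher in basal cells and 1 (2.5%) in luminal cells. Over all genes the shares were 3.72% and 4.16%. Igf1r, the IGF1 receptor, had 494 reads over 211 in basal and 252 over 296 in luminal cells, a difference of 0.78 (standard error 0.17). Pdk4, a kinase that restrains pyruvate oxidation and a textbook FOXO target, had 433 over 163 and 239 over 280, a difference of 0.95. Trib1 (0.73), a pseudokinase, was enriched over input in both cell types, and Rictor (0.62) is the scaffold of mTORC2. Pik3ca, the catalytic subunit of PI3-kinase, was called higher in luminal cells at -0.76. Immediate-early genes, which were enriched over input in both cell types (medians 0.69 and 0.48), had a median difference of 0.23. Of 25 tested, Myc was called higher in basal cells and 0 in luminal cells, a share of 4.0% beside 3.72% of all genes. That median was 0.011 between the ChIP libraries and -0.17 between the inputs.

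Of 35 forkhead genes tested, Foxj1 (0.77) and Foxk1 (0.76) were called higher in basal cells and Foxs1 (-0.90) in luminal cells, shares of 5.71% and 2.86% beside 3.72% and 4.16% of all genes. Foxp1 had 551 reads over 203 in basal cells and 315 over 249 in luminal cells, so that the ChIP library was the larger in both cell types. Its difference of 0.42 had an interval from -0.02 to 0.86 and was not called. Its relatives Foxp2 and Foxp4 stood at -0.18 and 0.36. Of 42 chromatin regulators, 6 (14.3%) were called higher in basal cells and 0 in luminal cells. Smarca2, an ATPase of the SWI/SNF remodelling complex, had 394 over 187 and 182 over 279, a difference of 1.01. Kdm4a (0.86), Hdac1 (0.72), Kmt2d (0.64) and Kmt2a (0.61) encode histone-modifying enzymes, and Hdac3 (2.59) was called on 4 to 22 reads per library with an interval from 0.05 to 5.14. Of 21 clock genes, Clock (0.75) and Bhlhe41 (0.61) were called higher in basal cells (9.52%), with a median of 0.26. Matrix genes, 38 tested, had a median of 0.20. Hspg2 (0.89), the basement membrane proteoglycan perlecan, and Thbs2 (0.83) were called higher in basal cells (5.26%) and Dcn (-0.60) in luminal cells (2.63%).

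Of the 176 named genes that were called, 115 lost the call with the widened interval and 67 with the inputs summed as a common background, a setting in which only the ChIP libraries differ. In the groups described so far, calls kept under both were those on Krt5, Itgb4, Irx4, Tbx3, Nfatc1, Wnt10a, Fzd2, Igf1r, Pdk4, Smarca2, Clock and Hspg2. Cdkn1b, Btg1, Trib1, Cd151 and Kdm4a kept the call with the widened interval only.

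**Figure D3:**
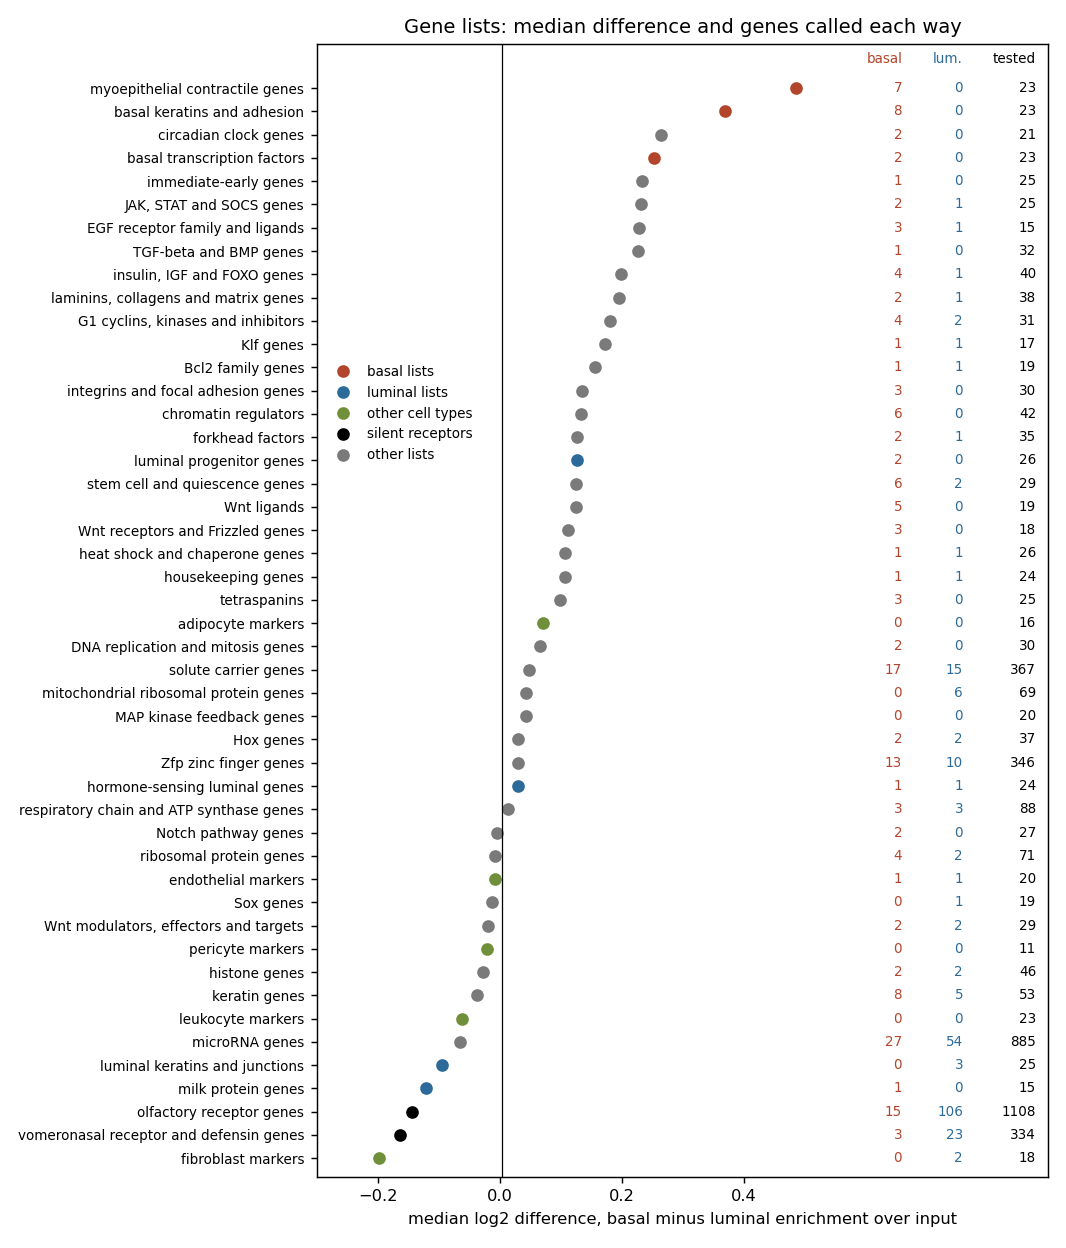
Median log2 difference, basal minus luminal, of each of the 47 gene groups, with the number of genes called higher in basal cells, called higher in luminal cells and tested at the right. The vertical line is the median of all tested genes. Contractile genes (0.49) and basal keratin and adhesion genes (0.37) lie farthest to the right, and the receptor groups and fibroblast markers farthest to the left.

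The genes farthest from no difference on the basal side, ranked by the interval bound nearest to it, were mostly ones with few reads. Of the first 25, 18 had under 100 input reads in all, against 12.8% of all tested genes, and 21 had another gene within 5000 bp, against 55.6%. Ddit3, the stress-induced factor CHOP, had 34 reads in ChIP over 18 in input in basal cells and 7 over 50 in luminal cells, a difference of 2.97 with an interval from 1.16 to 4.78. Slc26a11, an anion transporter, had 53 over 11 and 14 over 32 (2.70). Rev3l, the catalytic subunit of DNA polymerase zeta, had 63 over 38 and 9 over 50 (2.45), and Fancd2, of the Fanconi anaemia repair pathway, 57 over 35 and 11 over 57 (2.34). Padi3, a peptidylarginine deiminase of keratinocytes, had 58 over 19 and 9 over 29 (2.54). In Ddit3, Rev3l and Fancd2 luminal ChIP was called below its input while basal ChIP over input was not called, whereas Slc26a11 and Padi3 were called higher over input in basal cells only.

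Genes with more reads gave smaller and better bounded differences. Nipal4, a magnesium transporter of keratinocytes, had 238 reads over 100 in basal and 54 over 111 in luminal cells, a difference of 1.60 (standard error 0.29, 3.03-fold). Mt2, a metallothionein that binds zinc and copper, had 470 over 188 and 195 over 290, a difference of 1.21 (standard error 0.18), and its neighbour Mt1 was called too. The other metallothionein genes of the same locus, Mt3 and Mt4, both stood at 0.04. Ppp6r2, a partner of the PP6 phosphatase, had 371 over 118 and 183 over 226 (1.27), Dclk3, a doublecortin-like kinase, 198 over 124 and 74 over 195 (1.38), and Psapl1, a prosaposin relative, 298 over 152 and 114 over 219 (1.23). Sfn, the epithelial 14-3-3 protein sigma, chosen after its value was seen, had 630 over 214 and 287 over 269, a difference of 0.78.

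**Figure D4:**
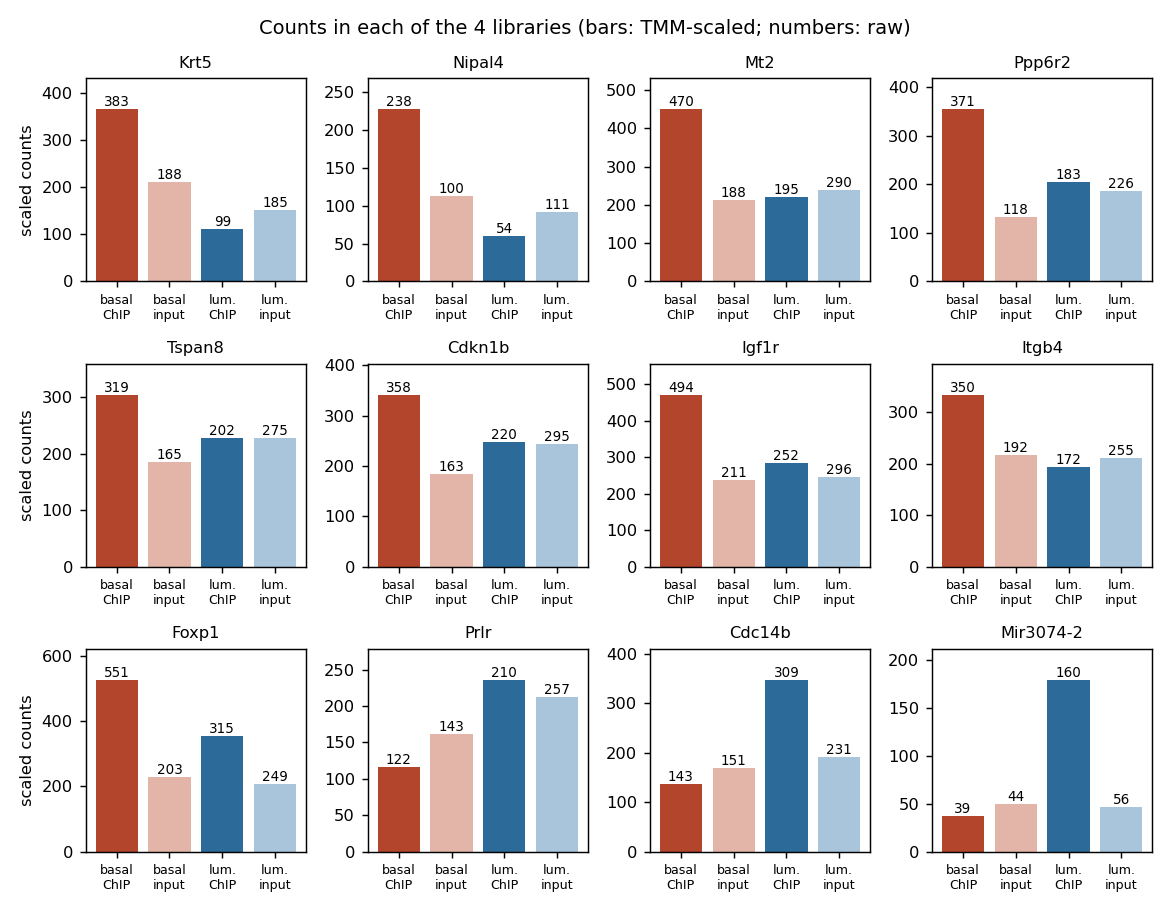
Reads in the basal Foxp1 ChIP, basal input, luminal Foxp1 ChIP and luminal input at 12 named genes. Bars are counts scaled to a common library size and the numbers above them the raw counts. Basal ChIP is the tallest bar in the panels from Krt5 to Foxp1 and luminal ChIP in Prlr, Cdc14b and Mir3074-2.

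On the luminal side, 14 of the first 25 genes had under 100 input reads and 19 had another gene within 5000 bp. Cdc14b, a phosphatase of the cell cycle, had 143 reads over 151 in basal and 309 over 231 in luminal cells, a difference of -1.18 (standard error 0.21, 2.26-fold higher in luminal cells). Selenoo, a mitochondrial selenoprotein, had 120 over 148 and 240 over 207 (-1.20), and Pon3, a lactonase, 98 over 157 and 189 over 193 (-1.33). Cdc14b and Selenoo were called higher over input in luminal cells, whereas Pon3 was called lower over input in basal cells. Uqcrq, a subunit of respiratory complex III, had 34 over 53 and 91 over 52 (-2.12), with opposite calls in the 2 cell types. Dner, a Notch ligand of neurons, had 13 over 36 and 42 over 33 (-2.46), Vti1a, a vesicle SNARE, 16 over 38 and 41 over 33 (-2.21), and Wdr46, a nucleolar protein, 1 over 14 and 16 over 13, so that 1 read carried its value of -4.24. Olfactory and vomeronasal receptors and Obp1b, an odorant-binding protein, were also among the 25: Olfr1324 stood at -1.37, Vmn2r90 at -1.22 and Obp1b at -1.51.

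Only 10 genes were called over input in opposite directions. Phkb, a subunit of phosphorylase kinase, had 72 reads over 31 in basal and 16 over 47 in luminal cells (2.05), and the microRNA gene Mir3472 had 92 over 48 and 28 over 72 (1.60). The other 8 were higher in luminal and lower in basal cells.

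Of 885 microRNA genes, 27 (3.05%) were called higher in basal and 54 (6.10%) in luminal cells, beside 3.72% and 4.16% of all genes, with a median of -0.07. The order of these counts turned with the receptors as the zero point (57 and 22), and with the inputs summed they were 45 and 59. A mature sequence was found in RefSeq for 788 of the tested genes, and 67 of these were called, 21 higher in basal and 46 in luminal cells. Their 100 mature sequences held 99 different seeds (bases 2 to 8, which pair with target mRNAs), and 1 seed was shared. It belonged to Mirlet7b (-1.47) and Mirlet7f-2 (-1.46), which lie on different chromosomes and were both called higher in luminal cells. Mature sequences of this pair and of 7 other called microRNA genes, the highest and the lowest among them, are given 5′ to 3′, with the seed in capitals.
miR-574-5p: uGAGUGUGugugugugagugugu
miR-7018-5p: gUGAGCAGacagggaguggugggg
miR-3472: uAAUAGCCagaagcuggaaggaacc
miR-8102: uCACGCGGgggaacgaggaaga
miR-3074-5p: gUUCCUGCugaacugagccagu
miR-99a-5p: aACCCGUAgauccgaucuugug
miR-133b-3p: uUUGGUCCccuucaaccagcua
let-7b-5p: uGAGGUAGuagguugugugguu
let-7f-5p: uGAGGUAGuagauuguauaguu
Mir574 (3.44) had 27 reads over 6 in basal and 4 over 18 in luminal cells. Mir7018 lies within Hspg2, which was called in the same direction, and had 207 over 121 and 69 over 165 (1.34). The lowest, Mir8102 (-2.68), had 5 over 24 and 26 over 29, so its difference rested on few reads and had an interval from -4.70 to -0.67. Mir3074-2 had 39 over 44 in basal and 160 over 56 in luminal cells, luminal ChIP standing far above the other 3 libraries, a difference of -2.36 (standard error 0.39). Mir99a, a microRNA of a family that targets mTOR, had 23 over 48 and 60 over 46 (-2.11). Its neighbour Mirlet7c-1 stood at -0.17 and was not called, and the host transcript gene Mir99ahg was called the other way at 0.73. Mir133b, a muscle microRNA, had 71 over 121 and 126 over 107 (-1.68), while Mir206 of the same cluster stood at 0.74 without being called. In neither cluster did the neighbours share the call.

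Neighbours of called genes were called about as often as genes in general (3.72% higher in basal and 4.16% in luminal cells). Of 1720 neighbours of genes called higher in basal cells 74 (4.30%) were called in the same direction and 3.78% in the other; for genes called higher in luminal cells the figures were 84 of 1912 (4.39%) and 3.40%. Of 69 mitochondrial ribosomal protein genes, 0 were called higher in basal and 6 (8.70%) in luminal cells, with a median of 0.04. The 6 became 1 of 46 at a minimum of 200 counts, 2 with the inputs summed and 0 with the widened interval, and 2 were called higher in basal cells with the receptors as the zero point or the 95% interval. Mrpl40 (-2.65), Mrpl37 (-1.74) and Mrps26 (-1.38) had 6 to 20 reads in basal ChIP, and Mrpl44 (-0.61) had 144. Ribosomal protein genes of the cytoplasm had 4 of 71 (5.63%) called higher in basal and 2 (2.82%) in luminal cells, led by Rpl36 (1.06). Respiratory chain genes had 3 of 88 (3.41%) each way, near the 3.72% and 4.16% of all genes. Of 53 keratin genes, 8 (15.1%) were called higher in basal and 5 (9.43%) in luminal cells, with a median of -0.04 and 24 above 0. The 8 were Krt5, Krt14, Krt16 and Krt17 along with Krt23, Krt76, Krt77 and Krt222, which are outside the basal list. The 5 were Krt13, Krt20, Krt26, Krt82 and Krt87, of which Krt87, a hair keratin, stood at -0.89 with 317 reads in luminal ChIP.

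Markers of other cell types gave few calls. Leukocyte (23), adipocyte (16) and pericyte markers (11) had none in either direction, with medians of -0.06, 0.07 and -0.02. Endothelial markers had Robo4 (0.73) called higher in basal and Eng (-0.90) in luminal cells, of 20 (5% each, beside 3.72% and 4.16% of all genes). Fibroblast markers had the lowest median of all groups, -0.20, with Serping1 (-0.92) and Dcn called higher in luminal cells, of 18 (11.1%). Between the ChIP libraries that median was 7.7e-05 and between the inputs 0.17. Counts of genomic DNA do not fall to 0 in cells that do not use a gene, so these values do not measure the presence of such cells, and their part in the results was not tested.

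The difference moved with base composition, read number and chromosome. In the first of 10 equal bins of promoter GC content (the lowest, with a median of 36.3%), the median difference was -0.14, with 17 genes called higher in basal and 165 in luminal cells of 1744. In the last bin (74%), it was 0.09, with 74 and 42 called of 1722. Basal input over luminal input had a median of 0.20 in the lowest bin and -0.05 in the highest. Basal ChIP over luminal ChIP, compared directly, had medians of 0.056 and 0.038 in the same bins. The input ratio is itself a term of the difference, so its opposite movement was partly fixed in advance. Olfactory receptor genes had a median of -0.14. Of 1108, 15 (1.35%) were called higher in basal and 106 (9.57%) in luminal cells, beside 3.72% and 4.16% of all genes. That median was 0.065 between the ChIP libraries and 0.21 between the inputs. With the inputs summed the order of the counts turned (51 and 23). Genes with 40 to 99 reads had a median of -0.11 and those with at least 1000 of 0.16. Of the latter 1333 genes, 110 (8.25%) were called higher in basal and 6 (0.45%) in luminal cells. Read number is the sum of the same 4 counts that form the difference, so the bins and the difference are not independent. On the X chromosome 29 genes (3.01%) were called higher in basal and 71 (7.37%) in luminal cells of 963, beside 3.72% and 4.16% of all genes. When each gene was centred on others of like promoter GC content, 606 and 682 of 17432 genes were called, among them 531 of 617 and 592 of 713 of the genes called before. The part of composition and read number in the calls on single genes was not otherwise tested.

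**Figure D5:**
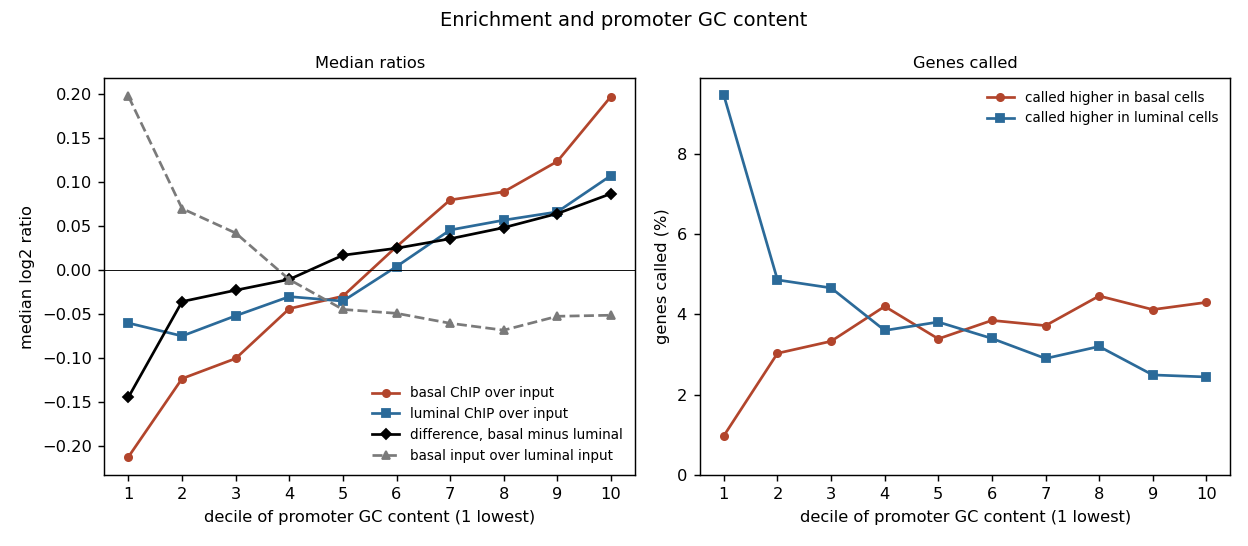
Left, median log2 ratios by decile of promoter GC content for basal ChIP over input, luminal ChIP over input, their difference, and basal over luminal input; right, percentage of genes called in each decile. The difference runs from -0.14 in the lowest decile to 0.09 in the highest, and luminal calls are most frequent in the lowest.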

How the data were processed

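The authors deposited raw read counts per gene for 4 libraries, not normalized. Per the submitters' processing notes, reads were counted with featureCounts and the build was mm10; the aligner, the counted region and the handling of duplicates are not given in these sources. Per the labels' protocols, a Millipore ChIP kit and TruSeq libraries were used, with single reads of 75 to 85 bp from a NextSeq 500. The table held 3772902 reads for basal ChIP, 3080114 for basal input, 3163948 for luminal ChIP and 4201459 for luminal input, and 24548 of 24548 genes were equal in each sample's own file.

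Counts were scaled with TMM factors (edgeR 4.0.16, R 4.3.3), which lay between 0.978 and 1.02. The log2 ratio of ratios was taken with 0.5 added to each count, and its standard error was computed from the 4 counts (Python 3.11.15, numpy 2.4.6, pandas 2.3.3, scipy 1.17.1). Ratios of 2 libraries have exact Clopper-Pearson 99% intervals. Intervals take every read as a separate molecule, which does not hold for PCR copies. With 1 library per group no count model was fitted and no replicate check was possible. The calculation was tested on simulated counts drawn with counting error only. That test checks the arithmetic and does not cover the larger spread of the real differences.

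Named genes were the 25 called genes in each direction whose interval bound lay farthest from no difference (predicted and clone names left out), the called, highest and lowest members of each list, a set of mammary regulators and Foxp family members, and genes called in opposite directions over input. The comparison, the 34 lists by name, the 13 by symbol pattern and this rule were chosen with earlier results of these data known. Genes named outside it were chosen after their values were seen, whether or not the text says so at the gene. They include relatives and neighbours of named genes such as Krt15, Mt1, Mt3, Mt4, Mirlet7b, Mirlet7f-2, Mirlet7c-1, Mir206 and Mir99ahg. Gene positions, promoters (18250 genes) and mature microRNAs come from RefSeq tables on GRCm38.p6. Alternatives were total counts, DESeq2 1.42.0 size factors, centring on olfactory receptors or within 10 promoter GC bins, and minimums of 1 and 200 counts. Others were 1 added to each count, an exact conditional interval, an interval widened by the receptor spread, both inputs summed, a 95% interval and a 2-fold threshold. With both inputs summed the common background cancels, so that setting is the direct comparison of the ChIP libraries and uses no input reads.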

Additional observations from a re-analysis of the deposited data

Results flagged for a closer look

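In 10 genes ChIP over input was called in opposite directions in basal and luminal cells, while the difference between the cell types was not tested, each group being 1 library. The basal ratio was the higher in Phkb (log2 difference 2.05) and Mir3472 (1.60). The luminal ratio was the higher in Uqcrq (-2.12), Mir99a (-2.11), Rnmt (-1.87), an mRNA cap methyltransferase gene, Tmem262 (-1.86), Mir133b (-1.68), Obp1b (-1.51), Nat14 (-1.39) and Magea10 (-1.31). Each had between 16 and 126 reads in every library.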

How the results depend on the processing

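No paired analysis was possible because each group has 1 library, and no library could be left out for the same reason. The counts of 861 and 963 stayed within 1.5 times with total counts, DESeq2 size factors, minimums of 1 or 200 counts, 1 added to each count, the exact conditional interval, the inputs summed, the 95% interval and centring within promoter GC bins. They moved further with the receptors as the zero point (2007 higher in basal and 415 in luminal cells), with intervals widened by the receptor spread (185 and 123) and at a 2-fold threshold (133 and 239). No call turned in direction under any of the 12 alternatives. Most of them leave the difference as it was or shift it by less than the 1.5-fold threshold, so they could not turn a call. With the inputs summed, which is the direct comparison of the ChIP libraries, the counts were 937 and 920. Only 388 and 430 of the genes called as reported were among them. Called throughout the 9 alternatives that keep all tested genes and the 1.5-fold threshold were 121 genes higher in basal and 80 in luminal cells. The basal keratin and adhesion group had 2 calls with the widened interval and 7 with the inputs summed, and the contractile group 0 and 11. Genes under 100 input reads, 2956 of those tested, have wide intervals, and a difference there that was not called was not detectable at this depth. Centring within promoter GC bins gave no value for the microRNA gene group, whose genes have no promoter window in the table.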

Other observations

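Some gene families outside the lists were looked at after their values were seen. Over all genes, 3.72% were called higher in basal and 4.16% in luminal cells. Of 21 late cornified envelope genes, which build the outer skin barrier, Lce1b (-0.71), Lce3d (-0.85) and Lce3e (-0.72) were called higher in luminal cells and 0 members in basal cells, with a median of -0.32. Of 14 ephrin receptor genes, which guide cell positioning, Ephb6 (1.05), Ephb2 (0.61) and Ephb4 (0.61) were called higher in basal cells and Epha5 (-0.83) in luminal cells. Of 4 plakophilins, Pkp3 (0.90) was called higher in basal cells along with Pkp1. In other families, basal and luminal calls were 2 and 3 of 13 T-box genes and 2 and 1 of 20 connexins. They were 1 and 1 of 14 small proline-rich genes, 1 and 1 of 9 desmogleins and desmocollins, and 0 and 1 of 23 claudins. Iroquois (6), 14-3-3 (7) and metallothionein genes (4) had 2 and 0 each, and peptidylarginine deiminases (5) had 1 and 0. The adjacent chemokine genes Cxcl1 (0.74) and Cxcl2 (0.60), and the adjacent genes Hexim1 (0.70) and Hexim2 (0.80), which encode inhibitors of the elongation kinase P-TEFb, were called higher in basal cells. Hexim1 had 572 reads over 214 in basal and 316 over 308 in luminal cells.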
